A study of Mus musculus with 16 samples.

Results

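The genes of arginine, itaconate and tryptophan metabolism described here are Arg1, Arg2, Nos2, Acod1, Ass1, Asl, Slc7a2, Slc7a11, Odc1 and Ido1. They were chosen by symbol from the deposited table of read counts on exons, and all 10 were found among its 24411 genes. RNA was sequenced from 16 libraries of brain macrophages, 4 in each of 4 groups. All recipients were C57BL/6J mice of WT genotype that had been irradiated with 950 cGy and had received congenic CD45.1 bone marrow. Host microglia as well as engrafted cells therefore come from irradiated brains. Sample labels give either 3.5 or 9 months since the transfer and do not assign them to libraries. For both the LPS-treated and the untreated chimeras, the paper names the longer of these times. Both populations were sorted from each of 8 mice as CD11b-positive, Ly6C/G-negative cells, 10000 to a library, with low CD45.1 for engrafted cells and low CD45.2 for host microglia. Mice 1 to 4 received LPS, the bacterial product lipopolysaccharide that activates Toll-like receptor 4, at 2.5 mg/kg and were killed 12 h later, and mice 5 to 8 were untreated.

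Macrophages take up arginine through cationic amino acid transporters and spend it in competing ways. Arginases cleave it to urea and ornithine, from which ornithine decarboxylase starts polyamine synthesis, whereas inducible nitric oxide synthase turns it into nitric oxide and citrulline, which Ass1 and Asl can rebuild into arginine. Acod1 makes itaconate from the citric acid cycle intermediate cis-aconitate, Slc7a11 imports cystine for glutathione, and Ido1 opens the breakdown of tryptophan to kynurenine, and several of these genes are known targets of inflammatory signals in macrophages.

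Levels are CPM, the reads of a gene scaled to the size of its library, and they are compared between libraries for 1 gene at a time, because reads of this protocol come from the 3′ end of transcripts and gene lengths were not used. The libraries held 395283 to 1203597 reads on genes, and the shallowest was that of engrafted cells of LPS mouse 4. A count of 0 allows up to 3 reads, which is 2.34 to 8.76 CPM depending on the library and covers counting error only. Markers of the populations followed the labels, with Ms4a7 averaging 550.1 CPM in untreated engrafted and 8.32 CPM in untreated host libraries, and P2ry12 averaging 641 and 2295 CPM. In sorted bulk cells, a change in the share of cells that carry a transcript and a change in its amount per cell cannot be told apart.

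RefSeq promoter windows (build GRCm38.p6, 250 bases before to 50 after the start of the gene) were found for 4 of the 10 genes, Acod1, Ass1, Slc7a11 and Odc1. The windows of Acod1, Ass1 and Slc7a11 are shown because these 3 genes rose with LPS in host microglia, as described further on. They lie on the plus strand at chr14:103046762-103047061 (Acod1) and chr2:31470020-31470319 (Ass1), and on the minus strand at chr3:50443564-50443863 (Slc7a11). Each is read 5′ to 3′ along the gene, and capitals mark matches to the motifs searched.
Acod1: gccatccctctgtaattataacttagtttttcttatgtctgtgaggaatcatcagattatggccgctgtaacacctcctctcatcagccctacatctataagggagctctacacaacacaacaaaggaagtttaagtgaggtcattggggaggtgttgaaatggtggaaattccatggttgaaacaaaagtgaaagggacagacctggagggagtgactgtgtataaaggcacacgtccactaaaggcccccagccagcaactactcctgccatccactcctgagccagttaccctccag
Ass1: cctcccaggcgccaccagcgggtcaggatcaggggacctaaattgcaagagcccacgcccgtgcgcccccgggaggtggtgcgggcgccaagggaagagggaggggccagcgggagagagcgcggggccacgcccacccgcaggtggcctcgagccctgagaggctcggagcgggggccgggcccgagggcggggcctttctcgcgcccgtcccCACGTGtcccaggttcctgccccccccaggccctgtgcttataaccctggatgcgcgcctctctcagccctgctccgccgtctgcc
Slc7a11: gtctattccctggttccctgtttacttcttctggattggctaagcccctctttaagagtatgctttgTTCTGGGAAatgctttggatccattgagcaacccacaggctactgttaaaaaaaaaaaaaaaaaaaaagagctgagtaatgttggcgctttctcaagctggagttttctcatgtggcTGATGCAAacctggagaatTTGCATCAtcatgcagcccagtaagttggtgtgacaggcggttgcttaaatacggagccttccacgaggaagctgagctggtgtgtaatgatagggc
Both strands were searched for 8 motifs, which are named here with the share of 32544 promoters of the same length that hold them: NF-kappaB (0.415%), ISRE (3.45%), GAS (TTCNNNGAA, 8.33%), AP-1 (TGANTCA, 7.79%), CRE (TGACGTCA, 1.8%), E-box (CACGTG, 7.17%), amino acid response element (TGATGCAA, 0.867%) and antioxidant response element (TGACNNNGC, 12.4%). The Slc7a11 window held the amino acid response element on either strand, beginning 66 and 47 bases before the start, and a GAS match beginning 183 bases before it. The Ass1 window, in which 74.0% of bases are G or C, held an E-box 36 bases before the start. None of these motifs was matched in the windows of Acod1 and Odc1, which says only that these exact letters are not in these 300 bases.

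**Figure D1:**
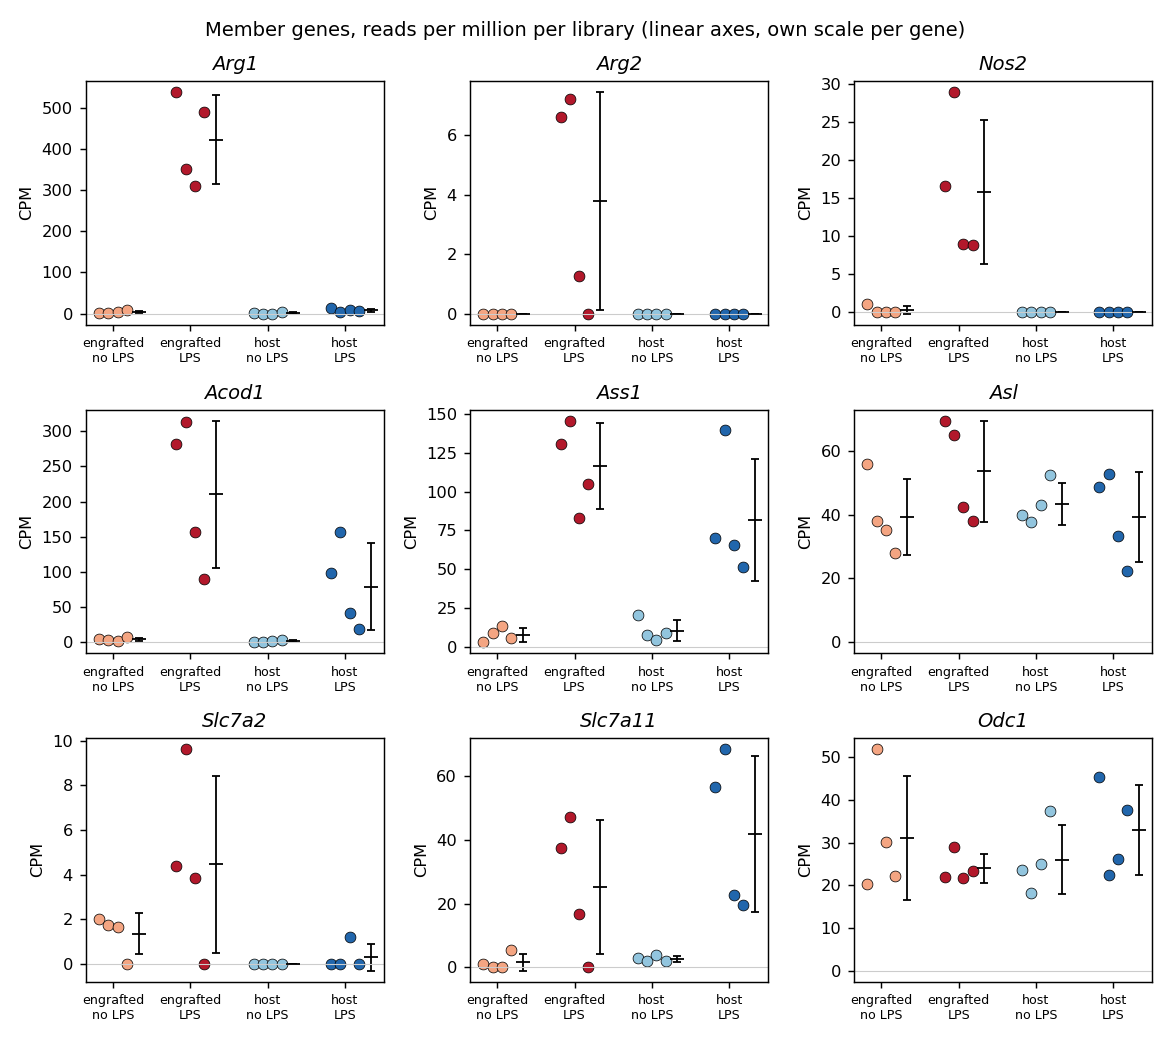
CPM (y axis, linear, a scale of its own for each gene) of 9 of the 10 genes in each library, by population and treatment on the x axis. Points are libraries in the order of mouse number, the bar beside them is the mean with SD (n = 4), and Ido1, without a read in any library, is left out. Arg1 of the 4 LPS-treated engrafted libraries lies at 311 to 539 CPM, above all 12 other libraries, while Acod1 and Ass1 stand high after LPS in both populations.

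Arg1, the cytosolic arginase (NM_007482, chromosome 10, 24635013 to 24647276 of mm9), was abundant in engrafted cells after LPS and scarce everywhere else. It was counted at 539, 353, 311 and 490.3 CPM in engrafted cells of LPS mice 1 to 4, and at 12.5, 3.91, 9.52 and 6.99 CPM in host microglia of the same brains. Without LPS it stood at 1.73 to 7.41 CPM in engrafted cells and at 0 to 4.04 CPM in host microglia, that is, at 4 reads or fewer in each library. The lowest LPS-treated engrafted library thus exceeded the highest of all others. After LPS, engrafted cells exceeded host microglia by a log2 fold change of 5.68 (standard error, SE, 0.32; adjusted p = 8.45e-10 by Benjamini-Hochberg over all genes tested, from the quasi-likelihood test of edgeR), and within each mouse the ratio of engrafted to host CPM was 32.7 to 90.3. LPS raised Arg1 in engrafted cells from 3.63 ± 2.62 to 423 ± 109 CPM (SD, n = 4), a log2 fold change of 6.89 (SE 0.34, adjusted p = 1.54e-11 from edgeR).

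In host microglia, Arg1 did not pass the filter for low counts, with 28 reads over the 4 LPS libraries and 5 reads over the untreated ones. The pooled CPM ratio was 6.46 (95% counting interval 2.46 to 21.4), and the difference missed the threshold in a two-sided exact permutation test (p = 0.0571, adjusted p = 0.190 over 12 such tests, whose smallest possible p is 0.029). Without a filter, edgeR called it higher with LPS (2.57, adjusted p = 0.00184). The effect of LPS on Arg1 was larger in engrafted cells than in host microglia by 4.35 on the log2 scale (SE 1.21, adjusted p = 0.0305, edgeR's interaction test). This difference rests on the few reads without LPS. It was 2.83 (adjusted p = 0.594 from edgeR) without the untreated host library of mouse 8, 4.33 (adjusted p = 0.0598) without that of mouse 5 and 4.18 (adjusted p = 0.0517) without the untreated engrafted library of mouse 6. The call was also lost without all 4 libraries of mice 4 and 8 (3.23, adjusted p = 0.559).

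Arg2, the mitochondrial arginase (NM_009705, chromosome 12, 80231775 to 80257288), had 13 reads in all, in engrafted libraries of LPS mice 1 to 3. These had 6, 6 and 1 reads, or 6.60, 7.23 and 1.28 CPM, and the engrafted library of mouse 4 and all 12 other libraries had none. Its mean of 3.78 ± 3.67 CPM (SD, n = 4) is close to what a count of 0 allows, so no fold is given, and the exact permutation test against host microglia after LPS gave p = 0.143 (adjusted p = 0.190). When no filter was applied, edgeR called it higher in engrafted cells after LPS (4.85, adjusted p = 0.00244) and with LPS in engrafted cells (4.65, adjusted p = 0.00856), fitted values that depend on the groups at 0.

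Nos2, the inducible nitric oxide synthase (NM_001313922, chromosome 11, 78738793 to 78773728), was read almost solely in engrafted cells after LPS. It had 16.5, 28.9, 8.96 and 8.76 CPM in engrafted cells of LPS mice 1 to 4, from 15, 24, 7 and 3 reads. No read fell on Nos2 in any of the 8 host libraries, and 1 read in the untreated engrafted library of mouse 5 was the only other. All 4 LPS-treated engrafted libraries lay above all 12 others, and after LPS the mean in engrafted cells was at least 4.48-fold higher than the limit of 3 reads per library in host microglia. Against untreated engrafted cells the pooled ratio was 46.2 (95% counting interval 7.91 to 1862), since a single read stands below it. Nos2 did not pass the filter. Exact permutation tests gave the smallest p that 4 against 4 libraries allow in both comparisons (p = 0.029), which did not pass adjustment over the 12 tests (adjusted p = 0.171). When no filter was applied, edgeR called Nos2 higher in engrafted cells after LPS (adjusted p = 2.47e-11) and with LPS in engrafted cells (adjusted p = 1.09e-07).

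Slc7a2, a cationic amino acid transporter (NM_007514, chromosome 8, 41947721 to 42007424), was also near the limit. Its 15 reads in engrafted cells after LPS gave 4.40, 9.63, 3.84 and 0 CPM in mice 1 to 4, against 1 read in host microglia of mouse 3. Untreated engrafted libraries held 2, 1, 1 and 0 reads and untreated host libraries none, so the populations overlapped at 0 without LPS and at the low end after LPS. The ratio after LPS was 18.1 with a 95% counting interval of 2.79 to 763, and the exact permutation test gave p = 0.143 (adjusted p = 0.190). In edgeR with no filter, Slc7a2 was called higher in engrafted cells after LPS (3.56, adjusted p = 0.00800) and not with LPS in engrafted cells (1.71, adjusted p = 0.199).

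Ass1, argininosuccinate synthase (NM_007494, chromosome 2, 31325790 to 31376190), rose with LPS in both populations. In engrafted cells it went from 7.67 ± 4.46 to 116 ± 27.7 CPM (SD, n = 4), with LPS libraries at 131, 146, 83.2 and 105 CPM. In host microglia it went from 10.5 ± 6.995 to 81.8 ± 39.4 CPM, with LPS libraries at 70.2, 140, 65.5 and 51.7 CPM. Treated and untreated libraries did not overlap in either population, whereas both populations overlapped after LPS. The log2 fold changes of LPS were 4.00 (SE 0.33, adjusted p = 1.17e-08 from edgeR) in engrafted cells and 3.10 (SE 0.36, adjusted p = 4.16e-07 from edgeR) in host microglia, and their difference of 0.90 (SE 0.62, adjusted p = 0.464) was not called. Between the populations, the log2 difference after LPS was 0.51 (SE 0.27, adjusted p = 0.232 from edgeR), with engrafted cells higher in 4 of 4 mice by 1.04 to 2.03 times.

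Asl, argininosuccinate lyase and the next enzyme of the same pathway (NM_133768, chromosome 5, 130487373 to 130500201), was read in every library, and none of its comparisons was called. It averaged 39.2 ± 11.8 CPM in untreated and 53.6 ± 15.8 CPM in LPS-treated engrafted cells, and 43.2 ± 6.58 and 39.3 ± 14.04 CPM in host microglia (SD, n = 4). All 4 groups overlapped. The log2 fold change of LPS was 0.44 (SE 0.26, adjusted p = 0.191 from edgeR) in engrafted cells and -0.12 (SE 0.23, adjusted p = 0.717) in host microglia. After LPS the engrafted library was the higher one in 4 of 4 mice, by 1.23 to 1.70 times, and the log2 difference between the populations was 0.48 (SE 0.27, adjusted p = 0.273 from edgeR).

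Odc1, ornithine decarboxylase (NM_013614, chromosome 12, 17551679 to 17558308), likewise overlapped among all groups, at 20.3 to 51.9 CPM in untreated and 21.7 to 28.9 CPM in LPS-treated engrafted cells. Host microglia had 18.3 to 37.3 CPM without and 22.5 to 45.3 CPM with LPS. Its log2 fold changes of LPS were -0.34 (SE 0.32, adjusted p = 0.423 from edgeR) and 0.31 (SE 0.27, adjusted p = 0.377) in engrafted cells and host microglia. Differences of the size of these standard errors were not detectable at this depth.

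Acod1, the itaconate-forming enzyme listed as Irg1 in older annotations (NM_008392, chromosome 14, 103446229 to 103455790), rose strongly in both populations. LPS took it from 4.15 ± 2.40 to 210.3 ± 105 CPM (SD, n = 4) in engrafted cells, a log2 fold change of 5.66 (SE 0.44, adjusted p = 4.09e-09 from edgeR). In host microglia it went from 1.58 ± 1.36 to 78.7 ± 61.8 CPM, a log2 fold change of 5.42 (SE 0.64, adjusted p = 7.03e-07 from edgeR). Treated and untreated libraries were separate in both populations, and the difference between the effects was 0.26 with an SE of 1.83 (adjusted p = 0.964), too wide to rank them.

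After LPS, Acod1 was counted at 282, 313, 156 and 90.5 CPM in engrafted cells of mice 1 to 4 and at 98.5, 156, 41.7 and 18.2 CPM in host microglia. The groups overlapped, yet in each mouse the engrafted library was the higher one, by 2.00 to 4.98 times, and the mice stood in the same order in both populations, with mouse 2 highest and mouse 4 lowest. The log2 difference was 1.43 (SE 0.44, adjusted p = 0.0326 from edgeR). The call was lost with scaling by library totals (1.298, adjusted p = 0.0503), with DESeq2 (1.44, adjusted p = 0.170), and without the engrafted library of mouse 1 or 2 or the host library of mouse 1, 3 or 4, where the difference ranged from 1.12 to 1.54.

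Slc7a11, the cystine and glutamate exchanger (NM_011990, chromosome 3, 50168858 to 50247535), rose with LPS in host microglia from 2.70 ± 0.923 to 41.8 ± 24.4 CPM (SD, n = 4). The treated libraries had 56.6, 68.4, 22.6 and 19.6 CPM and none of them overlapped the untreated ones, a log2 fold change of 3.89 (SE 0.47, adjusted p = 8.77e-07 from edgeR). In engrafted cells of the same mice it was counted at 37.4, 47.0, 16.6 and 0 CPM, below the host library in 4 of 4 mice, and again in the order of mice 2, 1, 3 and 4 in both populations. The population difference after LPS of -0.57 (SE 0.48, adjusted p = 0.484 from edgeR) did not pass. Within engrafted cells Slc7a11 missed the filter, the library of mouse 4 holding no read at a depth where 3 reads are 8.76 CPM, and untreated libraries had 0 to 5.56 CPM. The pooled ratio of LPS was 20.3 (95% counting interval 7.64 to 76.1), the exact permutation test gave p = 0.143 (adjusted p = 0.190), and edgeR without a filter gave an adjusted p of 3.97e-11.

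Ido1, indoleamine dioxygenase (NM_001293690, chromosome 8, 25694605 to 25706138), had 0 reads in all 16 libraries. Each library therefore allows it no more than the 2.34 to 8.76 CPM given above.

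**Figure D2:**
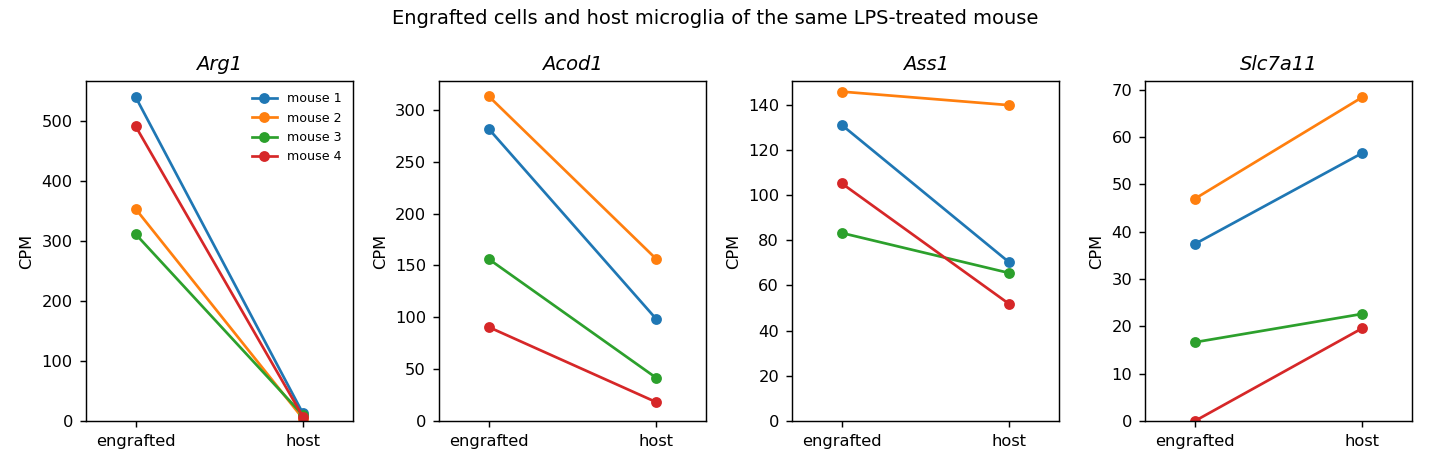
Arg1, Acod1, Ass1 and Slc7a11 (y axis, CPM, linear from 0) in engrafted cells and host microglia of the same LPS-treated mouse, each line joining both libraries of 1 of 4 mice. Arg1, Acod1 and Ass1 are higher in the engrafted library in 4 of 4 mice, and Slc7a11 is lower in it in 4 of 4.

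Counted over the list, 5 of the 10 genes passed the filter in engrafted cells with and without LPS, and 3 of them, Arg1, Acod1 and Ass1, were called higher with LPS and none lower. Over all 7609 genes tested in that comparison, 10.2% were called higher and 11.3% lower. In host microglia 5 genes were tested, and Acod1, Ass1 and Slc7a11 were called higher and none lower, against 7.66% called higher and 10.4% called lower of 8238 genes. After LPS, Arg1 and Acod1 of 6 genes tested were called higher in the engrafted population than in the host one and none lower, against 6.73% and 4.34% of 7843 genes. Within a population, genes such as Acod1 passed the filter through their LPS-treated libraries and had to differ there. Arg1 passed it through LPS-treated engrafted libraries, also in the comparison of the populations after LPS. Acod1 had 13 reads or more in each LPS-treated host library, so its difference between the populations was not set by the filter. These counts describe the genes and carry no weight of their own.

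Without LPS, only Asl and Odc1 were tested between the populations, with log2 differences of -0.07 (SE 0.22, adjusted p = 0.855) and 0.23 (SE 0.30, adjusted p = 0.631) from edgeR. Neither was called by edgeR or DESeq2, and 0 had an unadjusted p under 0.05, against 6.25% of 8042 genes called higher and 4.73% called lower. The other 8 genes were too low there. In the interaction of population and LPS, Arg1 was called higher in engrafted cells among 6 genes tested, and none lower, against 2.45% and 2.5% of 8847 genes.

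**Figure D3:**
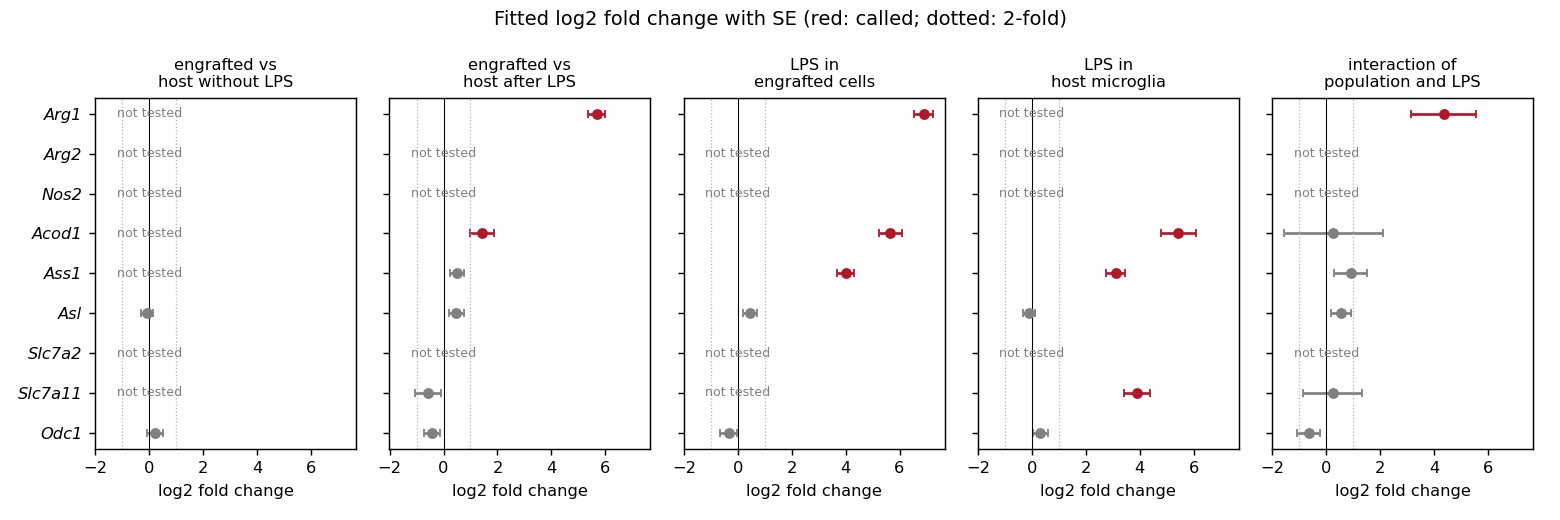
Log2 fold change (x axis) with its standard error from edgeR for 9 of the 10 genes (rows) in the 5 comparisons. Red marks calls (over 2-fold with an adjusted p below 0.05), dotted lines 2-fold, and "not tested" genes below the filter. Arg1 is the farthest to the right for LPS in engrafted cells (6.89) and was called in the interaction (4.35), while Acod1 and Ass1 were called for LPS in both populations.

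Markers of monocytes were high in the same libraries as Arg1 and Nos2. The 9 monocyte markers summed to 1202 to 2256 CPM in engrafted cells after LPS, against 120 to 163 CPM in untreated engrafted cells, 21.5 to 55.9 CPM in LPS-treated and 7.01 to 23.6 CPM in untreated host microglia. All 7 markers that could be tested were called higher with LPS in engrafted cells, and Ly6c2, which encodes an antigen by which positive cells had been removed in the sort, averaged 711 against 30.8 CPM. Every monocyte marker had a read in both engrafted groups. Among LPS mice 1 to 4 the sums were 2256, 1652, 1641 and 1202 CPM, beside Arg1 at 539, 353, 311 and 490 CPM. Mice 1 to 3 thus stood in the same order for both, while mouse 4, the shallowest library, had the lowest sum with the second highest Arg1. Acod1 reached 156 CPM in host microglia of mouse 2, where the monocyte sum was 21.5 CPM.

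The 12 microglial markers summed to 5101 to 6546 CPM in engrafted cells after LPS and 14965 to 16997 CPM before. They were lower after LPS in host microglia as well, at 15108 to 15649 CPM against 29439 to 31609 CPM before. The sums of the other cell types that follow are those of engrafted cells unless host microglia are named. The 13 neutrophil markers stood at 99.9 to 553 CPM after and 373 to 1416 CPM before. Single markers moved both ways: of 6 tested, 1 was called higher and 1 lower with LPS, beside 10.2% and 11.3% of all genes. Mmp8 had 82 reads after and 1 before, with 0 in host microglia, while Ltf had 19 after and 101 before. The 8 endothelial markers summed to 200 to 251 CPM after and 40.2 to 95.2 CPM before. Most of that sum was Ly6a, at 199 ± 23.9 CPM after and 54.9 ± 18.4 CPM before LPS in engrafted cells (SD, n = 4) and 38.8 and 26.3 CPM in host microglia. Pecam1 was also higher after LPS in engrafted cells, at 22.6 ± 6.76 against 1.63 ± 1.89 CPM, beside 11.3 and 14.9 CPM in host microglia. Flt1 went the other way in engrafted cells, at 2.27 CPM after and 10.9 CPM before. Slco1a4 had no read in any group and Tek 1 read in untreated engrafted cells. The 8 genes of the LPS response summed to 28423 to 47635 CPM after and 1780 to 2213 CPM before LPS in engrafted cells, and to 5270 to 12695 and 2349 to 2745 CPM in host microglia.

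Dendritic cell markers summed to 984 to 2040 CPM after and 1513 to 1972 CPM before LPS, T and NK cell markers to 2.56 to 35.0 and 9.27 to 24.2 CPM, neuronal markers to 5.84 to 27.7 and 12.97 to 65.8 CPM, and astrocyte markers to 17.5 to 34.5 and 13.4 to 61.8 CPM, with overlap between treated and untreated engrafted libraries in each. Most of the dendritic sum was Bst2, at 1232 ± 518 CPM after and 1725 ± 214 CPM before (SD, n = 4), so its overlap describes mainly that gene. Fscn1 averaged 49.2 CPM after and 20.9 CPM before, whereas Clec9a had 0 reads after and 20 before. Oligodendrocyte markers summed to 86.7 to 96.3 CPM after and 161 to 175 CPM before. The 4 red cell markers stood apart in mice 4 and 8, at 6380 CPM in the engrafted library of LPS mouse 4 and 4611 CPM in that of untreated mouse 8, against 2.56 to 71.0 CPM in the other 6 engrafted libraries. Host microglia of these mice had 783 and 702 CPM, against 2.93 to 155 CPM in the others. Without these 4 libraries, a choice made after seeing the data, Arg1 exceeded host microglia after LPS by 5.56 (adjusted p = 3.06e-10) and rose with LPS in engrafted cells by 7.34 (adjusted p = 1.42e-12 from edgeR), and Acod1 was called in the same 3 comparisons (1.34 between the populations, adjusted p = 0.00551). The part of other cells in the values of Arg1, Nos2 and Acod1 was not tested.

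**Figure D4:**
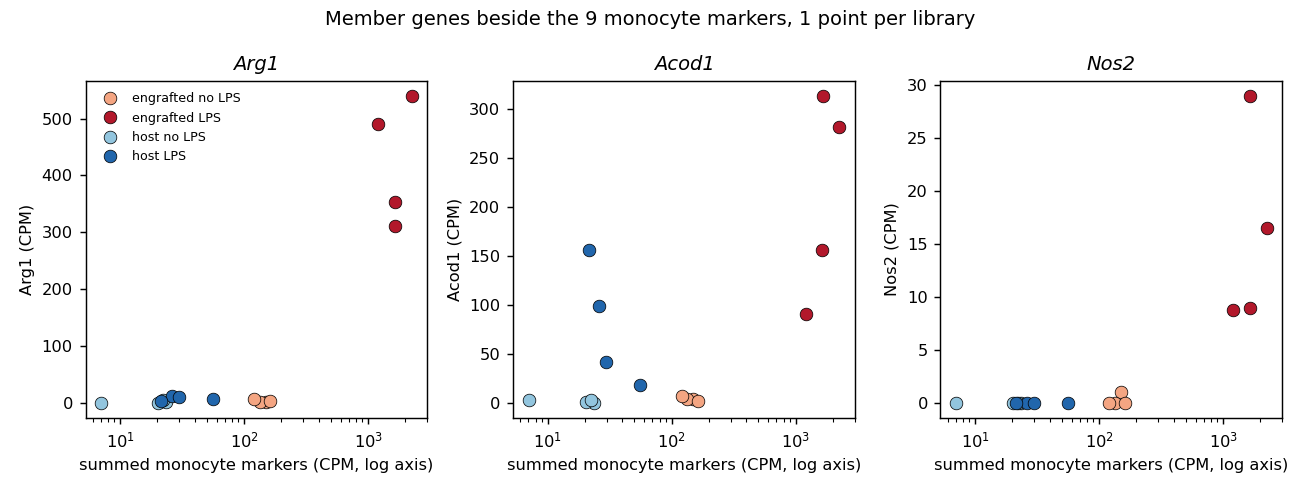
Arg1, Acod1 and Nos2 (y axes, CPM, linear) against the summed CPM of 9 monocyte markers (x axis, log scale), 1 point for each of 16 libraries, coloured by population and treatment. The 4 LPS-treated engrafted libraries stand alone at 1202 to 2256 CPM of markers and hold the high Arg1 and Nos2 values, whereas Acod1 is also high in host libraries with marker sums of 55.9 CPM or less.

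Genes with the most similar pattern were sought among 8846 genes by Pearson's r of log2 CPM over the 16 libraries, which share group, mouse and depth, for the 3 genes of the list with the highest mean level. For Arg1 they were Amica1 (r = 0.988), Hp (r = 0.979) and F10 (r = 0.979). For Acod1 they were Ikbke (r = 0.991), Il1rn (r = 0.983) and Mt1 (r = 0.981), and for Ass1 Mt2 (r = 0.964), Rnf169 (r = 0.958) and Tgm2 (r = 0.956). These values are a description of 4 groups of libraries.

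The surrounding pathways were followed with 5 lists of 104 other genes. In engrafted cells 63 of them were tested, of which 11 rose and 6 fell with LPS, beside 10.2% and 11.3% of all genes. In host microglia 65 were tested, of which 7 rose and 7 fell, beside 7.66% and 10.4%. Of the 62 tested in both, 4 rose in both populations, 4 fell in both, and none was called in opposite directions. The median log2 fold change was 0.26 in engrafted cells and 0.07 in host microglia, beside -0.01 and 0.01 over all genes tested. After LPS, 9 of 65 were called higher and 4 lower in engrafted cells than in the host population, beside 6.73% and 4.34% of all genes, and without LPS 4 and 3 of 62, beside 6.25% and 4.73%. Of their 56 calls over the 5 comparisons, 8 were lost without at least 1 library, and those that concern genes below are given with them.

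Of 20 other genes for arginine, the urea cycle and nitric oxide, 9 were tested in engrafted cells. Gch1, which starts synthesis of the tetrahydrobiopterin cofactor of nitric oxide synthases, rose in engrafted cells from 11.8 ± 5.91 to 136 ± 34.5 CPM (SD, n = 4) and in host microglia from 13.8 ± 3.47 to 44.0 ± 19.1 CPM. Its log2 fold changes were 3.44 (adjusted p = 3.05e-08) and 1.69 (adjusted p = 0.000131), and they differed by 1.75 (SE 0.49, adjusted p = 0.0317, all from edgeR). That last call was lost without each of 6 single libraries (engrafted of LPS mouse 1 and untreated mice 6 and 7, host of LPS mouse 3 and untreated mice 7 and 8), where the difference was 1.49 to 1.78 and the adjusted p 0.0526 to 0.0799. It was also lost without the libraries of mice 4 and 8 (1.58, adjusted p = 0.0801 from edgeR). Ddah2 fell in both populations, with log2 fold changes of -1.29 (adjusted p = 0.00368) and -2.07 (adjusted p = 2.16e-08 from edgeR) in engrafted cells and host microglia. Gamt, of creatine synthesis, fell from 24.8 ± 8.59 to 5.12 ± 5.10 CPM in engrafted cells (adjusted p = 0.000595; below the filter without untreated mouse 5) and from 30.4 ± 3.73 to 3.43 ± 3.62 CPM in host microglia (adjusted p = 3.02e-06 from edgeR).

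The amino acid transporters Slc7a1 and Slc7a6 rose in host microglia, where 10 genes of the list were tested. Slc7a1 went from 18.5 ± 7.19 to 56.1 ± 5.42 CPM (log2 fold change 1.52, adjusted p = 1.91e-05 from edgeR) and Slc7a6 from 14.2 ± 9.41 to 49.7 ± 8.22 CPM (1.69, adjusted p = 9.29e-05). Engrafted cells after LPS had less of both, at 22.6 ± 6.29 and 18.3 ± 2.14 CPM, and were called lower than host microglia by log2 differences of -1.23 (adjusted p = 0.00103) and -1.46 (adjusted p = 0.000314). The effect of LPS was not shown to differ, with interactions of -0.19 (adjusted p = 0.879) and -0.98 (adjusted p = 0.275) from edgeR. Cps1, Otc, Nags and Agmat had 0 reads in all libraries.

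Of 19 genes of polyamine, ornithine and proline metabolism, 13 were tested in every comparison. Azin1, an antizyme inhibitor that protects ornithine decarboxylase from degradation, rose in engrafted cells from 34.7 ± 3.48 to 98.3 ± 23.1 CPM and in host microglia from 77.6 ± 12.4 to 232 ± 44.9 CPM. The log2 fold changes of LPS were 1.52 (adjusted p = 1.6e-05) and 1.57 (adjusted p = 2.77e-07 from edgeR), and engrafted cells had less of it without LPS (-1.14, adjusted p = 4.48e-05) and after LPS (-1.20, adjusted p = 0.000421). Eif5a, the translation factor modified with spermidine, rose by 1.28 (adjusted p = 1.22e-05) and 1.27 (adjusted p = 2.43e-06) in engrafted and host cells, while Odc1 itself was not called.

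Srm, spermidine synthase, was called higher with LPS in engrafted cells (1.24, adjusted p = 2.92e-05 from edgeR), from 61.5 ± 9.46 to 146 ± 21.1 CPM. In host microglia it went from 163 ± 16.3 to 291 ± 40.5 CPM and was not called. It was called lower in engrafted than in host cells without LPS (-1.39, adjusted p = 3.57e-08 from edgeR). After LPS this difference was -0.98 and not called. Without the libraries of mice 4 and 8 it was -1.01 and called (adjusted p = 0.000982 from edgeR). Paox, which oxidizes acetylated polyamines, was higher in engrafted cells with and without LPS, at 85.9 ± 11.8 and 87.6 ± 8.11 CPM against 29.3 ± 9.94 and 24.4 ± 5.34 CPM (SD, n = 4; log2 differences 1.57 and 1.82, adjusted p = 0.000113 and 3.85e-08 from edgeR). Sat1, the acetyltransferase that marks polyamines for export or oxidation, fell by 1.03 in engrafted cells (adjusted p = 0.000206), beside -0.78 in host microglia (adjusted p = 0.000713), with an interaction of -0.27 (adjusted p = 0.627 from edgeR). Smox, spermine oxidase, fell by 1.02 in host microglia (adjusted p = 1.48e-05), beside -0.30 in engrafted cells (adjusted p = 0.336), with an interaction of 0.70 (adjusted p = 0.153 from edgeR). Both calls lie at the 2-fold limit and each was lost without any 1 of 4 libraries, at -0.95 to -0.99 for Sat1 (engrafted of LPS mice 1 to 3 and untreated mouse 7) and -0.94 to -0.999 for Smox (host of LPS mice 1 and 3 and untreated mice 7 and 8).

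Of 25 genes of the citric acid cycle and itaconate handling, 23 were tested. With LPS, 1 rose and 1 fell in engrafted cells, beside 10.2% and 11.3% of all genes. In host microglia 0 rose and 2 fell, beside 7.66% and 10.4%. Idh2, the mitochondrial isocitrate dehydrogenase, fell in both populations, with log2 fold changes of -1.32 (adjusted p = 3.47e-05) and -1.56 (adjusted p = 6.06e-06 from edgeR), from 103 ± 11.6 to 42.3 ± 7.45 CPM in engrafted cells. Idh1, its cytosolic counterpart, fell by 1.26 in host microglia (adjusted p = 0.0025) and was called higher in engrafted cells after LPS (1.60, adjusted p = 0.0261 from edgeR), while the interaction of 1.73 did not pass (adjusted p = 0.0641). The LPS-treated engrafted libraries of Idh1 had 20.9, 13.2, 21.7 and 73.0 CPM in mice 1 to 4, the last from 25 reads in the library with 6380 CPM of red cell markers. Without that library Idh1 differed by 1.06 (adjusted p = 0.0453), and without the host library of LPS mouse 1 or 2 the call was lost (adjusted p = 0.0763 and 0.0739 from edgeR).

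Sdhd, a membrane anchor of succinate dehydrogenase, the enzyme that itaconate inhibits, rose by 1.03 in engrafted cells (adjusted p = 0.000379), and fell short of 2-fold without the engrafted library of LPS mouse 4 (0.88), untreated mouse 6 (0.97) or untreated mouse 8 (0.999). The catalytic subunit Sdha had log2 fold changes of 0.03 and -0.09 (adjusted p = 0.917 and 0.722). Slc25a10, the mitochondrial dicarboxylate carrier, was higher in engrafted cells without LPS (1.53, adjusted p = 1.1e-07) and after LPS (1.48, adjusted p = 0.000369 from edgeR).

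Of 22 genes of tryptophan breakdown and of the aryl hydrocarbon receptor that senses its products, 7 were tested within engrafted cells and 7 within host microglia. Ido2 and Tdo2, the other enzymes that open tryptophan breakdown, had 0 reads in all 16 libraries, as did Aadat, Acmsd, Tph1, Tph2 and Cyp1a1. Haao, a late enzyme of the kynurenine route, fell with LPS in engrafted cells from 24.6 ± 5.34 to 7.95 ± 2.77 CPM and in host microglia from 55.9 ± 7.16 to 21.1 ± 8.07 CPM (log2 fold changes -1.66 and -1.38, adjusted p = 0.0012 and 7.32e-05 from edgeR). Afmid, an enzyme early in that route, fell by 1.24 in host microglia (adjusted p = 0.000997). In engrafted cells it averaged 24.0 ± 16.2 CPM before and 27.3 ± 17.5 CPM after LPS. Its population difference after LPS (1.06) and its interaction (1.44) were not called. Without the engrafted library of LPS mouse 4, which held 2 reads, both were called (1.28 and 1.64, adjusted p = 0.0103 and 0.0489 from edgeR). Wars, the tryptophan tRNA synthetase, rose by 1.15 in engrafted cells (adjusted p = 0.00163 from edgeR), or 0.90 without the engrafted library of LPS mouse 1, which is short of 2-fold.

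Ahr, the receptor, had no read in the 4 untreated host libraries and 44.7 ± 12.4 CPM in untreated engrafted cells, at least 14.1-fold higher than the limit of 3 reads per library. After LPS, host microglia had 13.7 ± 7.34 CPM, at least 4.32-fold higher than that limit without LPS, and engrafted cells had 52.4 ± 18.7 CPM, a log2 difference between the populations of 1.95 (adjusted p = 0.00043 from edgeR). Tiparp, a target of the receptor, was higher in engrafted cells without LPS (1.25, adjusted p = 0.000677) and rose with LPS in host microglia from 17.3 ± 3.74 to 57.7 ± 12.8 CPM (1.74, adjusted p = 3.54e-06 from edgeR). In engrafted cells it went from 39.8 ± 9.42 to 68.1 ± 32.1 CPM with LPS (0.83, not called). Without the engrafted library of LPS mouse 4 it was called higher there too (1.05, adjusted p = 0.000377 from edgeR).

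Of 18 genes of cystine and glutathione handling, 11 were tested within engrafted cells, where 5 rose and 1 fell (10.2% and 11.3% over all genes), and 12 within host microglia, where 1 rose and none fell (7.66% and 10.4%). Gsr, glutathione reductase, rose in engrafted cells from 4.57 ± 1.92 to 69.9 ± 9.03 CPM (SD, n = 4; log2 fold change 3.91, adjusted p = 1.32e-08) and had 8.47 ± 3.19 and 15.6 ± 9.49 CPM in host microglia (0.93, adjusted p = 0.0775), a difference of 2.99 (adjusted p = 0.00163 from edgeR). Gpx1, a glutathione peroxidase, and Txn1, thioredoxin, showed the same direction, with log2 fold changes of 1.46 (adjusted p = 9.11e-05) and 1.81 (adjusted p = 2.02e-05) in engrafted cells and -0.52 (adjusted p = 0.0117) and 0.19 (adjusted p = 0.458) in host microglia. Their interactions of 1.97 (adjusted p = 0.000171) and 1.62 (adjusted p = 0.00339) passed in edgeR. The engrafted library of LPS mouse 4, with its 6380 CPM of red cell markers, held the highest Gpx1, at 3794 CPM against 1484 to 2086 CPM in mice 1 to 3, and the lowest Txn1, at 96.3 CPM against 276 to 342 CPM. Without it, LPS raised Gpx1 by 1.14 (adjusted p = 4.24e-06), Txn1 by 2.06 (adjusted p = 1.02e-09) and Gsr by 3.95 (adjusted p = 1.96e-09) in engrafted cells, and the interactions of Gpx1, Txn1 and Gsr were 1.63, 1.85 and 3.01 (adjusted p = 5.2e-05, 7.32e-06 and 0.00179 from edgeR).

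Txnrd1, thioredoxin reductase, was the gene that rose in both populations, by 1.29 (adjusted p = 0.00555) and 1.90 (adjusted p = 3.12e-06). Hmox1, heme oxygenase, rose by 1.21 in engrafted cells (adjusted p = 5.92e-05), beside 0.79 in host microglia (adjusted p = 0.000578), with an interaction of 0.40 (adjusted p = 0.416), and was the higher in engrafted cells after LPS (1.34, adjusted p = 3.26e-05 from edgeR). Slc3a2, the partner chain of Slc7a11, changed by less than 2-fold in both populations (0.50 and 0.53, adjusted p = 0.0243 and 0.00662 from edgeR). Nfe2l2, the factor that drives many antioxidant genes, fell by 1.14 in engrafted cells (adjusted p = 9.06e-05 from edgeR).

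**Figure D5:**
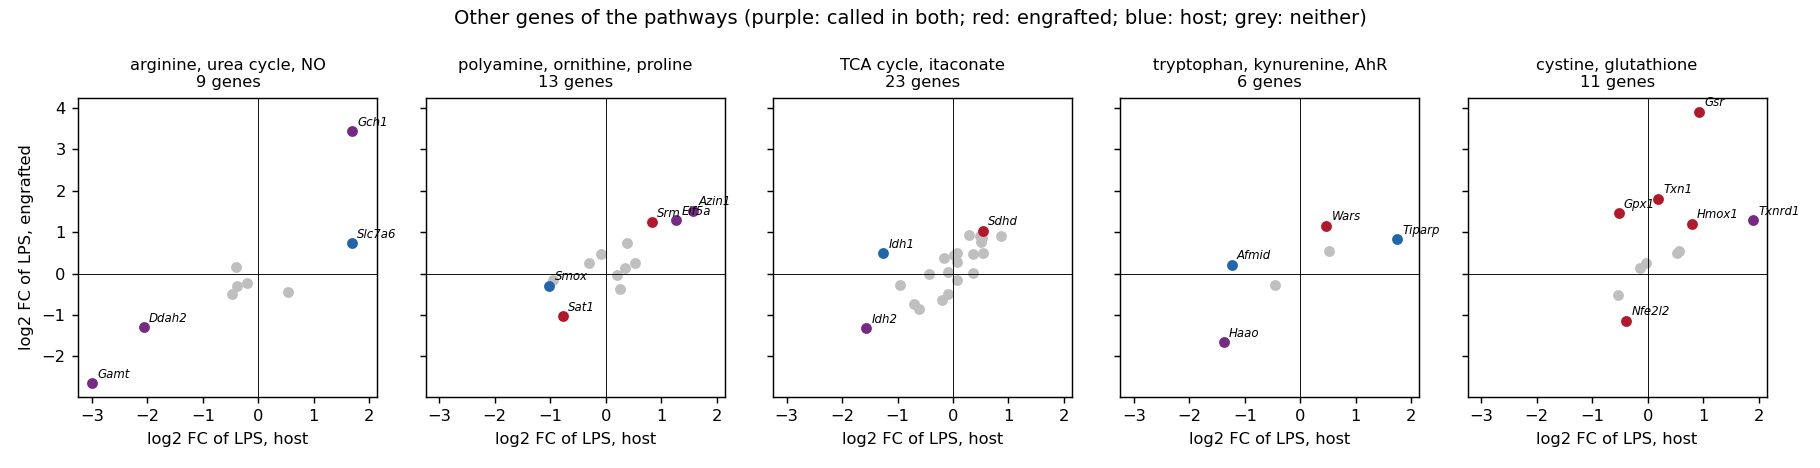
Log2 fold change of LPS in host microglia (x axis) against engrafted cells (y axis) for the 62 pathway genes tested in both, in 5 panels of 9, 13, 23, 6 and 11 genes. Purple genes were called in both populations, red in engrafted cells, blue in host microglia and grey in neither. Gch1 and Gsr lie highest, at 3.44 and 3.91 in engrafted cells, and Gamt lies lowest, at -2.65 in engrafted cells.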

How the data were processed

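RNA of 16 libraries was analysed from raw read counts per gene that the authors deposited without normalization. Reads of MARS-seq derived libraries, which are 3′ biased, had been mapped with HISAT (0.1.5 in the submitters' processing notes) to mm9 (NCBI build 37), and unique reads on exons of 1 RefSeq model per gene had been counted on the sense strand with HOMER. No removal of PCR duplicates is named, so counting intervals are too narrow. Both samples of a mouse carry its number in the labels, and other experiments of the series are not analysed here.

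Counts were tested in R 4.3.3 with edgeR 4.0.16 (filterByExpr with minimum count 10 and minimum total 15, TMM scaling, quasi-likelihood test, prior count 0.125) and adjusted by Benjamini-Hochberg over all genes tested. Calls needed more than a 2-fold change and an adjusted p below 0.05. Each comparison used its own 8 libraries, the interaction all 16. Standard errors (SE) were derived from the log2 fold change divided by the root of F, and CPM use TMM library sizes over all 16 libraries. Genes under the filter with at least 10 reads were compared by exact permutation of 4 against 4 libraries, and pooled ratios have 95% exact counting intervals. The fits were tested on simulated data.

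Engrafted and host libraries of a number come from the same animal. After removal of group means, Pearson's r within mice 1 to 8 was 0.145, 0.0173, 0.210, 0.124, 0.0244, -0.0299, 0.0472 and 0.0832, and the mouse served as a block among the alternatives. Others were RLE size factors, library totals, DESeq2 1.42.0, no filter, a minimum of 10 reads in every library, 1 fit of all libraries, leaving out each library and, added after seeing the data, leaving out the 4 libraries of mice 4 and 8.

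The genes and lists were chosen with earlier results of these data known. Named are all 10 genes, up to 3 called genes of each pathway list per comparison by size of change, and the 3 most similar genes for each of the 3 genes with the highest mean. Sdha, Slc3a2, Nfe2l2, Hmox1, Sat1, Ly6a, Pecam1, Flt1, Mmp8, Ltf, Bst2, Fscn1, Clec9a and the list genes without reads were added after their values were seen. Promoter windows are RefSeq's on GRCm38.p6, another build than the table's, and no coordinate was converted.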

Additional observations from a re-analysis of the deposited data

Results flagged for a closer look

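Nos2 had 1.01 CPM, from 1 read, in the untreated engrafted library of mouse 5 and 0 in the other 3 libraries of that group. Slc7a2 had 1.19 CPM, from 1 read, in the LPS-treated host library of mouse 3 and 0 in the others. Both passed Dixon's limit for 4 samples, which any single read beside 3 libraries at 0 does.

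The effect of LPS differed between engrafted cells and host microglia, by edgeR's interaction test, for Arg1 (4.35 on the log2 scale), Gsr (2.99), Gpx1 (1.97), Gch1 (1.75, a call that 6 of 16 single libraries decide) and Txn1 (1.62), all larger in engrafted cells. The call of Arg1 was lost in 4 of 22 alternatives. For Ahr the fitted difference was -6.28, and its size depends on the 0 reads in all 4 untreated host libraries.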

How the results depend on the processing

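Among single genes of the list, 377 alternative values kept direction and call, 11 kept direction and lost the call (7 of Acod1 after LPS, 4 of Arg1 in the interaction) and 13 changed sign, none of them in a called result. With the mouse as a replicate block, which is possible where both populations of a mouse are compared, no call among these genes changed: Arg1 exceeded host microglia after LPS by 5.68 (adjusted p = 4.23e-12) and Acod1 by 1.57 (adjusted p = 1.46e-05), and the interaction for Arg1 was 4.25 (adjusted p = 0.00996, edgeR).

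Genes of the list called higher in engrafted cells after LPS numbered 1 with library totals, 1 with DESeq2, 5 with no filter, 1 with 10 reads in every library and 1 to 2 without single libraries. For LPS in engrafted cells the number was 6 with no filter and 3 to 4 without single libraries. With the filter, 6.73% and 10.2% of all genes were called higher in these comparisons. The genes added with no filter were Arg2, Nos2 and Slc7a2 in the first and Arg2, Nos2 and Slc7a11 in the second. The group they were compared with held 0 to 4 reads of each, so these counts depend on groups near 0. With 10 reads in every library, 0 were called for LPS in engrafted cells, 0 in host microglia and 0 in the interaction, since that minimum removes genes that are low in 1 group. In the interaction, 0 to 1 were called without single libraries.

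Over all genes, no filter gave 895 called higher in engrafted cells without LPS, 857 after LPS, and 1337 called lower with LPS in engrafted cells. With 10 reads in every library the numbers higher and lower were 230 and 172 without LPS, 245 and 136 after LPS, 385 and 431 for LPS in engrafted cells, 381 and 490 for LPS in host microglia, and 141 and 110 in the interaction. Without single libraries 135 to 245 genes were called lower in the interaction, with 135 without the LPS-treated host library of mouse 3 and 143 without the untreated host library of mouse 8. Without the libraries of mice 4 and 8, an alternative added after seeing the data, 147 genes were called lower in the interaction and 0 genes of the list higher, and Asl changed sign between the populations without LPS (0.158) and for LPS in host microglia (0.159).

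Without single libraries, log2 fold changes that changed sign ranged from -0.12 to 0.45 (Odc1) and -0.34 to 0.043 (Asl) between the populations without LPS, -0.55 to 0.011 for LPS in engrafted cells (Odc1), -0.28 to 0.060 for LPS in host microglia (Asl), and -0.14 to 1.66 (Slc7a11) and -0.10 to 0.85 (Acod1) in the interaction. Except where the minimum itself removes genes, the cause was not tested. Depth limits Nos2, Arg2, Slc7a2 and the untreated levels of Arg1 and Acod1, which rest on 4 reads or fewer per library outside LPS-treated cells.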
